A study of Mus musculus with 7 samples.

Results

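The genes described here are Pdyn, the precursor of the dynorphins, and 9 other neuropeptide precursor genes (Penk, Pomc, Npy, Sst, Cck, Vip, Tac1, Tac2 and Cartpt). They were taken by gene symbol from a count table of 55401 mouse genes, so they are 10 of 55401 rows, and all 10 were present. Pdyn was chosen by its count in the ATG7 libraries against the EYFP libraries, since it had already passed that comparison. Its values in that comparison are therefore given as a description and support nothing. The other 9 were added as members of the same functional family.

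C57BL/6 mice aged 6 to 8 weeks, males by the title of the study, gave dorsal hippocampal microglia that were profiled by RNA sequencing in 4 EYFP libraries and 3 ATG7 libraries. Every mouse had been given AAV-RAM-Cre by injection into the dentate gyrus (dorsal part), and the RAM promoter is active in neurons recently driven by experience, so Cre was directed to such neurons. The EYFP group also received AAV-Dio-EYFP, a Cre-dependent fluorescent protein, and the ATG7 group AAV-Dio-Atg7-Flag, a Cre-dependent, tagged copy of the autophagy enzyme ATG7. The transgene was thus directed to neurons, while the sequenced cells were those held by beads against CD11b, a surface protein of microglia and other myeloid cells. The labels do not say how many mice went into a library or whether replicates came from separate mice, so p-values measure the spread between these libraries, which may be technical. The comparison asks what differed in microglia when ATG7 was raised in dentate gyrus memory engram cells.

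Neuropeptides are made as long precursor proteins that are cut by proprotein convertases and carboxypeptidases, stored in dense-core granules and released from neurons and endocrine cells onto G protein-coupled receptors. In the hippocampus, dentate granule cells make dynorphin and enkephalin, and interneurons make neuropeptide Y, somatostatin, cholecystokinin and vasoactive intestinal peptide. Microglia carry receptors for several of these peptides and surface peptidases that degrade them.

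Library totals ran from 35934210 to 55217119 counts. The libraries held microglial RNA together with RNA of other cells. The summed level of 10 microglial markers was 21398 to 26437 CPM (counts per 1e6 library counts, with TMM factors) and that of 8 choroid plexus epithelium markers, led by Ttr, 32021 to 49136 CPM. Atg7 itself averaged 35.6 ± 1.68 CPM in the 4 EYFP libraries (SD, n = 4) and 34.9 ± 2.76 CPM in the 3 ATG7 libraries (SD, n = 3), and with the transgene directed to neurons this does not check the labels. Xist, which is expressed in female cells, was at 938.5 CPM in the library labelled EYFP 3 and at 0.151 to 0.574 CPM in the others. That library thus goes against the male label, and values without it are given for Pdyn and Npy. In these bulk libraries fewer cells of a type and less RNA per cell cannot be told apart.

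Of the 10 precursors, Pdyn rose in the ATG7 libraries, 4 others (Penk, Pomc, Npy and Cck) were tested and did not pass, and 5 (Sst, Vip, Tac1, Tac2 and Cartpt) had too few reads for the test. The test was edgeR's quasi-likelihood test over 19199 genes with Benjamini-Hochberg adjustment and a threshold of 0.05. It called 145 of the 19199 genes (0.755%), 132 of them higher in ATG7 (0.688%) and 13 lower (0.0677%). Pdyn is the member that fixed the choice, so nothing is read from 1 call among the 5 members tested. DESeq2, which called 3.43% of its genes, and limma-voom, which called 0.865%, also called Pdyn alone among the members. The median log2 fold change of the 5 was -0.09, beside -0.0037 over all genes tested.

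**Figure D1:**
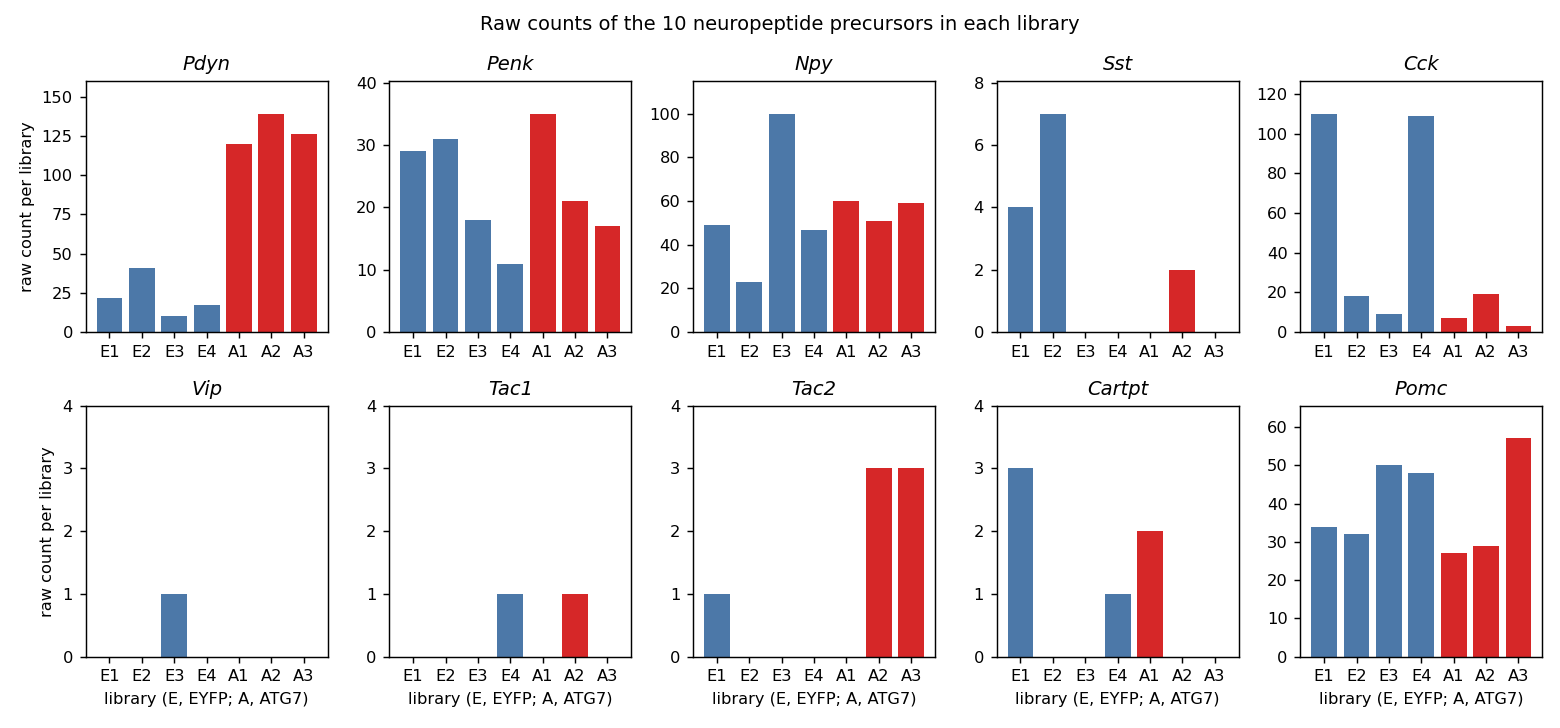
Raw counts of the 10 neuropeptide precursor genes, 1 panel per gene with its own axis and 1 bar per library (E1 to E4, EYFP; A1 to A3, ATG7). Pdyn is at 10 to 41 counts in EYFP and 120 to 139 in ATG7; Cck is at 109 and 110 in EYFP 4 and EYFP 1 and at most 19 elsewhere.

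Pdyn (ENSMUSG00000027400, GRCm38 chromosome 2, 129686565 to 129699844, minus strand) encodes prodynorphin, whose products act mainly on the kappa opioid receptor. It had 22, 41, 10 and 17 reads in EYFP 1 to 4 and 120, 139 and 126 reads in ATG7 1 to 3. All 3 ATG7 libraries were high, and the groups did not overlap. Scaled for depth, the levels were 0.601, 0.894, 0.222 and 0.417 CPM in EYFP and 3.00, 2.53 and 2.71 CPM in ATG7. The lowest ATG7 library stood 2.83-fold above the highest EYFP library. The spread was uneven, with a 4.03-fold range among the EYFP libraries and a 1.19-fold range among the ATG7 libraries.

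The means were 0.533 ± 0.286 CPM for EYFP (SD, n = 4) against 2.75 ± 0.236 CPM for ATG7 (SD, n = 3), a log2 fold change of 2.36 (SE 0.357, edgeR adjusted p = 0.0156). Levels of this size rest on few reads. The exact Poisson 95% interval was 4.795 to 18.4 reads in EYFP 3, 29.4 to 55.6 in EYFP 2 and 99.5 to 143 in ATG7 1, and it covers counting error only. By mean CPM Pdyn stood at the 25.7th percentile of the genes tested, and by log2 fold change it ranked 4 among the 132 genes called higher, whose median was 0.89. It passed the filter on low counts in all 7 libraries.

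Pdyn was higher in ATG7 under each of 17 other settings, with log2 fold changes from 2.09 to 2.84, and 11 of these kept the call. The adjusted p ranged from 1.07e-07 (DESeq2) to 0.224. Leaving out any of 3 libraries ended the edgeR call: without ATG7 2 the adjusted p was 0.0642 (log2 fold change 2.41), without ATG7 3 it was 0.0929 (2.36) and without EYFP 4 it was 0.0676 (2.26). Without EYFP 3, the library with Xist, the log2 fold change was 2.09 (adjusted p = 0.0107). With the mean of the choroid plexus markers as a covariate, a setting chosen after seeing the data, it was 2.84 with an adjusted p of 0.0807. With the mean of the pan-neuronal markers as a covariate it was 2.52 with an adjusted p of 0.00260.

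**Figure D2:**
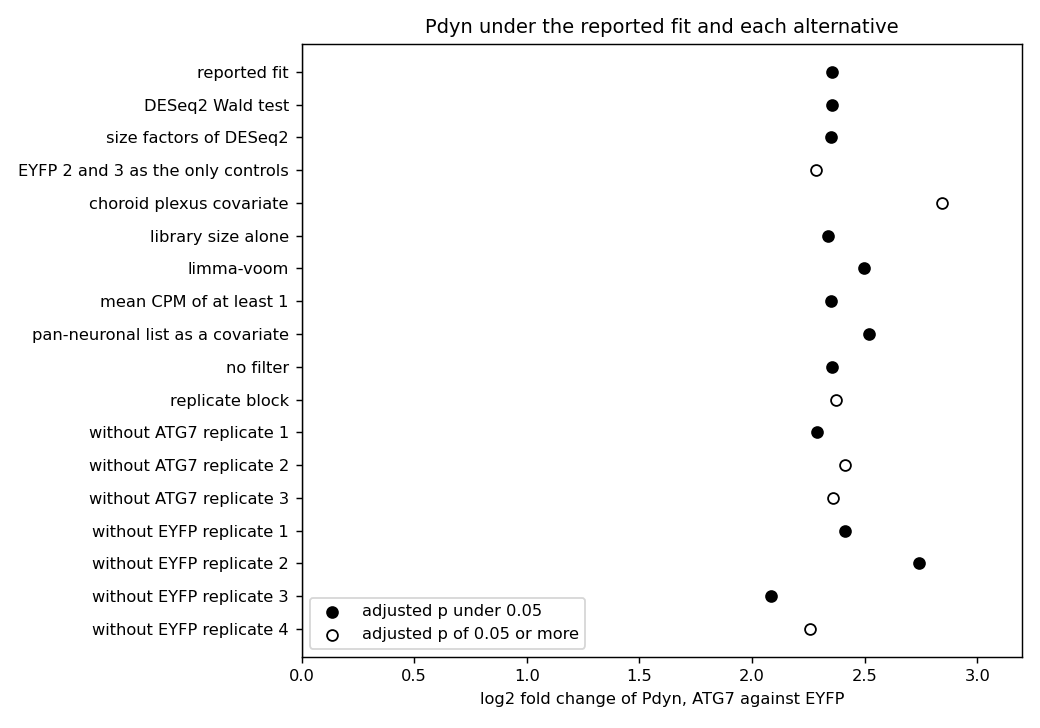
Log2 fold change of Pdyn (ATG7 minus EYFP) under the reported setting and 17 alternatives, with filled points where the adjusted p is under 0.05. All points lie between 2.09 and 2.84, and 6 alternatives lose the call.

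RefSeq gives Pdyn 2 start sites, and the 250 bases upstream of each are shown because Pdyn is the member that rose. Both windows are from GRCm38.p6 and lie on the minus strand, at chr2:129699939-129700188 and, inside the gene, at chr2:129698659-129698908. They are written 5′ to 3′ toward the start site, with the CCAAT box in capitals (as ATTGG where it is on the opposite strand).
Pdyn, outer start site: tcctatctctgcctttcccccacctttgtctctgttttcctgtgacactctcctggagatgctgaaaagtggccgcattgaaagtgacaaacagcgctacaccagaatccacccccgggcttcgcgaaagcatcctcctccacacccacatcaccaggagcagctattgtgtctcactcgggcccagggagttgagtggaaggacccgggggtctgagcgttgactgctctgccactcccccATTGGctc
Pdyn, inner start site: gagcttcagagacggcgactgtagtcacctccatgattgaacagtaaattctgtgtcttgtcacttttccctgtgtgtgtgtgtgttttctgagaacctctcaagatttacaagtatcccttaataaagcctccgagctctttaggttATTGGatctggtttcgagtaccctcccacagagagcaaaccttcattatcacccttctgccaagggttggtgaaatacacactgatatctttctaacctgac

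The CCAAT box began 8 bases before the outer start site and 102 bases before the inner one. CCAAT was in 33.8% of 32851 windows of this length over all genes, both strands searched. The outer window was 57.2% G and C and the inner 44.0%. Neither window held the cAMP response element (TGACGTCA, 1.55% of all windows), its shorter core TGACG (17.8%), the AP-1 site TGANTCA (6.75%), the interferon-stimulated element (GAAA, any 2 bases, GAAA; 2.98%) or TATAAA (12.4%). No match says only that these letters are not in these windows.

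The protein-coding genes on each side of Pdyn did not pass the test. Sirpa, an inhibitory receptor of myeloid cells (129592835 to 129632228, 54337 bases away), stood at 1898 ± 199.8 CPM for EYFP (SD, n = 4) against 1946 ± 204.4 CPM for ATG7 (SD, n = 3), with a log2 fold change of 0.04 (edgeR adjusted p = 0.939). Stk35, a kinase gene (129800517 to 129832287, 100673 bases away), had a log2 fold change of -0.05 (edgeR adjusted p = 0.857).

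Penk and Pomc encode the other opioid precursors, and neither passed the test. Penk (ENSMUSG00000045573, chromosome 4, 4133531 to 4138819), the source of the enkephalins, had 29, 31, 18 and 11 reads in EYFP and 35, 21 and 17 in ATG7. Its levels were 0.534 ± 0.241 CPM for EYFP (SD, n = 4) against 0.541 ± 0.289 CPM for ATG7 (SD, n = 3). The groups overlapped, with a log2 fold change of 0.0034 (SE 0.464, edgeR adjusted p = 0.999). Penk overlaps the antisense transcript A830012C17Rik, which had 3 reads over all libraries; whether the counting used strand is not given in the sources used here. Penk and Pdyn stood at nearly the same CPM in EYFP, and in ATG7 Pdyn was above its EYFP range in all 3 libraries and Penk in 1 (ATG7 1, at 0.874 CPM); the difference between the 2 genes' changes was not tested.

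Pomc (ENSMUSG00000020660, chromosome 12, 3954951 to 3960642) encodes the precursor of beta-endorphin, ACTH and the melanocortins. It had 34, 32, 50 and 48 reads in EYFP and 27, 29 and 57 in ATG7. The means were 0.978 ± 0.215 CPM for EYFP (SD, n = 4) against 0.809 ± 0.368 CPM for ATG7 (SD, n = 3). ATG7 3 was at the top of all 7 libraries and the other ATG7 libraries at the bottom, so the groups overlapped. The log2 fold change was -0.27 (SE 0.340, edgeR adjusted p = 0.818).

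Among the interneuron peptides, Npy and Cck had enough reads to test. Npy (ENSMUSG00000029819, chromosome 6, 49822710 to 49829507) encodes neuropeptide Y, which dampens excitatory transmission in the hippocampus. It had 49, 23, 100 and 47 reads in EYFP and 60, 51 and 59 in ATG7. EYFP 3 was highest and EYFP 2 lowest, with the ATG7 libraries between them. The means were 1.30 ± 0.708 CPM for EYFP (SD, n = 4) against 1.23 ± 0.287 CPM for ATG7 (SD, n = 3). The log2 fold change was -0.09 (SE 0.408, edgeR adjusted p = 0.962). Without EYFP 3, the library with Xist, it was 0.30 (edgeR adjusted p = 0.808).

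Cck (ENSMUSG00000032532, chromosome 9, 121489824 to 121495694) encodes cholecystokinin, a peptide of cortical and hippocampal neurons and of the gut. It had 110, 18, 9 and 109 reads in EYFP and 7, 19 and 3 in ATG7. EYFP 1 and EYFP 4 were high, the lower of them 6.82-fold above the highest other library in CPM, and EYFP 2 and EYFP 3 lay within or near the ATG7 range. The means were 1.57 ± 1.48 CPM for EYFP (SD, n = 4) against 0.195 ± 0.142 CPM for ATG7 (SD, n = 3), with a log2 fold change of -2.94, an SE of 1.09 and an unadjusted p of 0.0287 (edgeR adjusted p = 0.343). With EYFP 2 and EYFP 3 as the only controls, a setting chosen after seeing the data, the log2 fold change was -0.57 (adjusted p = 0.788). That setting drops the libraries where Cck was high, so a smaller difference was fixed in advance. Cck passed the filter in 3 EYFP libraries and 1 ATG7 library, so its place in the test rested on the group where it was high.

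The 250 bases upstream of Cck (GRCm38.p6, chr9:121495695-121495944, minus strand) are shown beside those of Pdyn because Cck was the member that varied most between libraries. Capitals mark the core of the cAMP response element, here as CGTCA on the opposite strand, which began 47 bases before the start site.
Cck: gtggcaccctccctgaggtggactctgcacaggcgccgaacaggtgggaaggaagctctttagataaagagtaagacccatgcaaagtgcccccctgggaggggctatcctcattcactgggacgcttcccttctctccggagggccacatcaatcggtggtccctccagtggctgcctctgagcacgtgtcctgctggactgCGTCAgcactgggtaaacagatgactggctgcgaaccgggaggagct

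The full element TGACGTCA was in the windows of Sst and Cartpt, and the core TGACG in those of Sst, Cck, Vip, Tac1 and Cartpt, so 5 of the 10 windows held the core, beside 17.8% of all windows. These 10 windows belong to 9 members. The interferon-stimulated element was in the Sst window alone and TATAAA in those of Vip and Pomc.

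Some genes of dense-core granules and of the pituitary stood high in the same libraries as Cck, and others did not. In CPM, both EYFP 1 and EYFP 4 were above all other libraries for 7 of the 16 processing and granule genes (Pcsk1, Scg2, Chga, Chgb, Cadps, Ptprn and Ptprn2) and not for the other 9. Cpe and Scg3, for example, were lowest in EYFP 4, at 118.7 and 15.3 CPM. The 3 genes given next were picked after their values were seen. Chromogranin A (Chga), the main soluble protein of such granules, had 1305, 3, 5 and 1379 reads in EYFP and 8, 5 and 5 in ATG7. The lower of EYFP 1 and EYFP 4 was 169.3-fold above the highest other library, and both high libraries were controls. Scg2, secretogranin II, had 277, 11, 0 and 164 reads in EYFP and 13, 4 and 5 in ATG7. Its log2 fold change was -4.17 (edgeR adjusted p = 0.468). Scg2 passed the filter in 3 EYFP libraries and 1 ATG7 library. As with Cck, its place in the test rested on the group where it was high. Chgb, chromogranin B, had 720, 16, 9 and 407 reads in EYFP and 155, 10 and 13 in ATG7, and ATG7 1 was thus raised as well (log2 fold change -2.43, edgeR adjusted p = 0.710).

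Of 10 pituitary genes, listed after these values were seen, 3 (Lhb, Gh and Prl) were at 0 in every library. Both EYFP 1 and EYFP 4 were above all others for Cga, Pitx1 and Lhx3 and not for Tshb, Fshb and Pou1f1. The 10 together had 179, 18, 14 and 228 reads in EYFP and 4, 6 and 7 in ATG7. Cga, the shared alpha subunit of the pituitary glycoprotein hormones, had 77 reads in EYFP 1, 62 in EYFP 4 and 0 elsewhere. Pomc, which pituitary corticotrophs and melanotrophs also make, did not follow these libraries. The part of this signal in the Cck difference was not tested. The fit with EYFP 2 and EYFP 3 as controls cannot test it, since it drops the libraries where Cck was high. That edgeR fit left Pdyn at a log2 fold change of 2.28 (adjusted p = 0.0929).

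**Figure D3:**
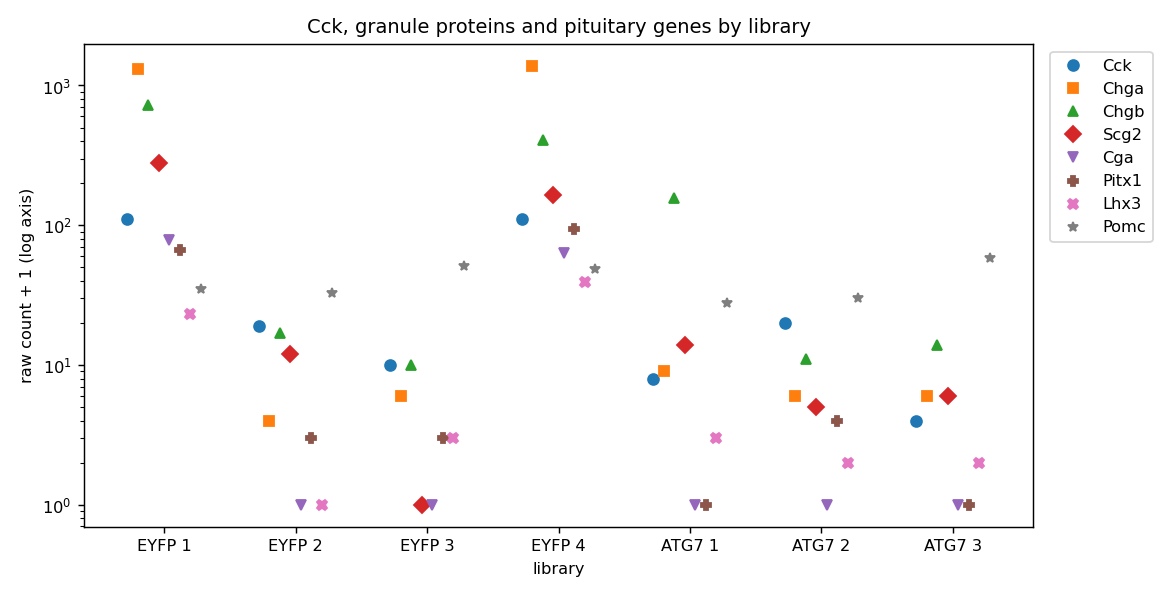
Raw count plus 1 (log axis) of Cck, granule proteins and pituitary genes in each library, 1 symbol per gene. EYFP 1 and EYFP 4 stand above the other 5 libraries for Cck and Chga.

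The remaining 5 members were at or near the floor of 3 reads per library, 0.0543 to 0.0835 CPM, and no fold is given. Sst (chromosome 16, 23889573 to 23890958), the somatostatin precursor, had 4, 7, 0 and 0 reads in EYFP and 0, 2 and 0 in ATG7. Tac2 (chromosome 10, 127724478 to 127731768), the neurokinin B precursor, had 1, 0, 0 and 0 reads in EYFP and 0, 3 and 3 in ATG7. Cartpt (chromosome 13, 99898489 to 99901091), the precursor of the CART peptides, had 3, 0, 0 and 1 reads in EYFP and 2, 0 and 0 in ATG7. These 3 genes showed no library clearly apart from the rest. Tac1 (chromosome 6, 7554879 to 7565834), the substance P precursor, had 1 read in EYFP 4 and 1 in ATG7 2. Vip (chromosome 10, 5639218 to 5647617), the precursor of vasoactive intestinal peptide, had 1 read in EYFP 3. A difference between the groups was not detectable at this depth for any of the 5.

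Per exon length, the order of the members differed between groups in the places of Pdyn and Cck and, near the floor, of Tac2. In CPM per kilobase of exon (mean of libraries), EYFP held Npy at 2.30, Cck at 1.202, Pomc at 0.742, Penk at 0.327, Pdyn at 0.185 and Sst at 0.0908. Among neighbours in that order, the library ranges were separate for Pomc and Penk alone. ATG7 held Npy at 2.18, Pdyn at 0.951, Pomc at 0.614, Penk at 0.331, Cck at 0.149 and Tac2 at 0.0288, with separate ranges for Npy and Pdyn and for Cck and Tac2. On this scale the microglial receptor gene Cx3cr1 was at 749.8 in EYFP and 839.4 in ATG7, so every member was a rare transcript in these libraries.

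None of the other neuropeptide precursors was called. Of 31 such genes, 7 had no read in any library, 8 were tested and 0 were called by edgeR, DESeq2 or limma-voom, with 0 at an unadjusted p under 0.05 (12% of all genes). In the edgeR fit 5 had a log2 fold change above 0 and 3 below, with a median of 0.04. The most abundant were Npff (neuropeptide FF) at 2.09 ± 0.593 CPM over the 4 EYFP libraries (SD, n = 4) and 2.17 ± 0.363 CPM over the 3 ATG7 libraries (SD, n = 3), Nppc (C-type natriuretic peptide) at 1.54 ± 0.593 and 1.10 ± 0.101, and Npb (neuropeptide B) at 1.10 ± 0.187 and 1.21 ± 0.184. Nppc had the smallest p, with a log2 fold change of -0.49 (edgeR adjusted p = 0.601). Pnoc, the remaining gene of the opioid precursor family, was under the filter, with 6, 0, 2 and 1 reads in EYFP and 16, 19 and 0 in ATG7.

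Precursor processing and granule genes had mostly lower means in ATG7, and none passed the test. Of 16 such genes, 13 were tested and 0 were called by edgeR, DESeq2 or limma-voom. A log2 fold change below 0 was seen for 12, Scg2 among them. The list median was -0.32, beside -0.0037 over all genes tested. An unadjusted p under 0.05 was reached by 2 (Scg5 and Ptprn2), beside 12% of all genes. Without overlap, 2 (Pam and Pcsk5) were lower in ATG7, beside 4.91% of all genes tested. Scg5, the chaperone of prohormone convertase 2, had the smallest p, with a log2 fold change of -0.32 (SE 0.113, edgeR adjusted p = 0.276). Cpe, the carboxypeptidase that trims peptide ends, averaged 156.9 ± 44.3 CPM in the 4 EYFP libraries (SD, n = 4) and 149.2 ± 8.15 CPM in the 3 ATG7 libraries (SD, n = 3). Pam, the enzyme that amidates peptide ends, stood at 52.5 ± 6.36 and 45.8 ± 1.03 CPM. Scg3, a granule sorting protein, stood at 24.7 ± 8.20 and 21.7 ± 2.15 CPM.

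The 2 main precursor convertases differed in abundance. Pcsk2 had 629 to 956 reads in each library, and Pcsk1 had 7, 2, 0 and 11 reads in EYFP and 1, 0 and 3 in ATG7.

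No peptide receptor was called either. Of 24 receptor genes, 4 had no read in any library, 8 were tested and 0 were called by edgeR, DESeq2 or limma-voom. For 1 (Npy2r) the unadjusted p was under 0.05, beside 12% of all genes, and the list median log2 fold change was -0.03. Npy2r, a receptor for neuropeptide Y, had 8, 18, 27 and 29 reads in EYFP and 4, 17 and 8 in ATG7. Its log2 fold change was -1.27 (SE 0.513, edgeR adjusted p = 0.351), and the groups overlapped. Npy2r passed the filter in 4 EYFP libraries and 1 ATG7 library. Its place in the test thus rested on the group where it was high. Oprk1, the kappa receptor on which Pdyn products act, had 2, 1, 0 and 1 reads in EYFP and 1, 2 and 2 in ATG7, near the floor in both groups. The most abundant receptor was Vipr1, a receptor for vasoactive intestinal peptide, at 16.2 ± 0.903 CPM over the 4 EYFP libraries (SD, n = 4) and 14.99 ± 1.24 CPM over the 3 ATG7 libraries (SD, n = 3). Adcyap1r1, the PACAP receptor, stood at 6.72 ± 3.65 and 6.35 ± 0.942 CPM, and Mc3r, a melanocortin receptor, at 5.13 ± 0.823 and 3.91 ± 0.733 CPM.

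Of 12 peptide-degrading peptidases, 11 were tested and 0 were called by edgeR, DESeq2 or limma-voom, with a median log2 fold change of 0.00035. An unadjusted p under 0.05 was reached by 3 (Anpep, Ace and Dpp4), beside 12% of all genes. Anpep, aminopeptidase N, which cleaves enkephalins, was higher in all 3 ATG7 libraries without overlap (6.33% of all genes tested), with a log2 fold change of 0.41 (SE 0.144, edgeR adjusted p = 0.285). Ace, angiotensin-converting enzyme, averaged 779.5 ± 114 CPM in the 4 EYFP libraries (SD, n = 4) and 632.4 ± 50.2 CPM in the 3 ATG7 libraries (SD, n = 3). Npepps, a cytosolic aminopeptidase, stood at 131.8 ± 9.70 and 131.9 ± 4.72 CPM, and Ide, insulin-degrading enzyme, at 66.6 ± 4.48 and 67.3 ± 0.393 CPM.

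**Figure D4:**
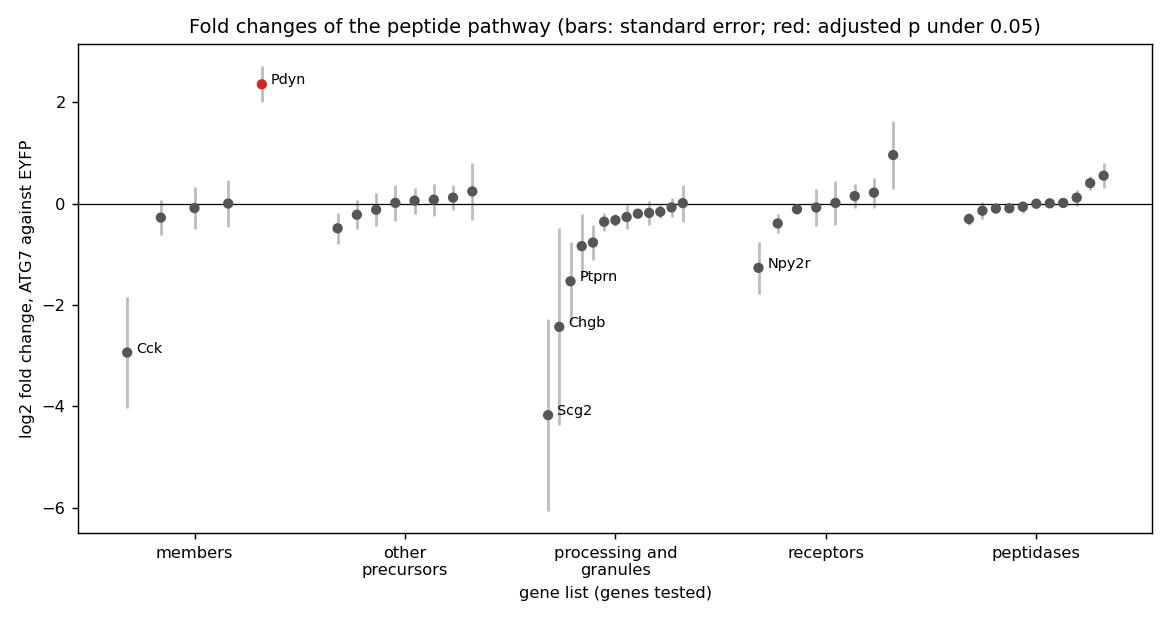
Log2 fold change (ATG7 minus EYFP) of every tested member and every tested gene of the 4 peptide pathway lists, 1 point per gene with its standard error as a bar and called genes in red. Pdyn at 2.36 is the gene called; the precursor processing list has 12 of 13 genes below 0.

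The summed levels of 3 neuronal marker lists were not higher in ATG7, while single granule cell and GABAergic markers went both ways. The summed level of 12 pan-neuronal markers ran from 59.5 CPM in EYFP 3 to 108.2 CPM in EYFP 1 among controls, with means of 80.5 ± 21.0 CPM for EYFP (SD, n = 4) against 61.5 ± 2.89 CPM for ATG7 (SD, n = 3) (exact permutation test, two-sided, p = 0.229, 0.571 adjusted over 10 marker lists). All 12 pan-neuronal markers were tested, and all 12 had a log2 fold change below 0. The other 2 neuronal lists were mixed. Of 11 granule cell markers tested, 5 were above 0 and 6 below, and of 8 GABAergic markers tested, 2 were above and 6 below. The 12 dentate granule cell markers summed to 216.9 ± 22.4 CPM for EYFP (SD, n = 4) against 185.3 ± 10.98 CPM for ATG7 (SD, n = 3), p = 0.0857 by the same exact test (adjusted 0.571). This sum was led by Rfx3, Dsp and Glis3, with EYFP means of 64.2, 45.5 and 42.6 CPM. Prox1, the defining transcription factor of granule cells, was at 18.9 ± 4.45 and 22.4 ± 0.634 CPM, so its mean was higher in ATG7, opposite to the sum. Whether the genes that lead the sum came from granule cells in these libraries was not tested. C1ql2 had 11, 5, 0 and 0 reads in EYFP and 2, 5 and 3 in ATG7. The 12 GABAergic markers summed to 49.4 ± 9.06 CPM for EYFP (SD, n = 4) against 38.3 ± 2.34 CPM for ATG7 (SD, n = 3), p = 0.114 by the exact test (adjusted 0.571). Among the most abundant markers were Map2, Eno2 and Celf4 of the pan-neuronal list, Rfx3, Glis3 and Dsp of the granule cell list, and Erbb4 and Reln of the GABAergic list. Of these 3 lists edgeR called 0 markers, limma-voom 0, and DESeq2 2 of the granule cell list and 1 of the GABAergic list (3.43% of its genes). An unadjusted p under 0.05 was reached by 2 pan-neuronal, 3 granule cell and 1 GABAergic marker (12% of all genes), and 1 pan-neuronal and 3 granule cell markers were lower in ATG7 without overlap (4.91% of all genes). Fam163b, a granule cell marker in both of these counts, passed the filter in 3 EYFP libraries and 0 ATG7 libraries. Its place in the test thus rested on the group where it was high, and it supports nothing here. The part of neuronal RNA in the Pdyn values was not tested beyond the fit with the mean of the pan-neuronal markers as a covariate. The granule cell and GABAergic lists were not fitted as covariates.

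T and NK lymphocyte markers had higher values in the libraries where Pdyn was high. Of 8, all tested, 6 (Cd3d, Cd3e, Cd3g, Cd8a, Nkg7 and Foxp3) were higher in ATG7 without overlap, beside 6.33% of all genes tested, and the list median log2 fold change was 1.44. An unadjusted p under 0.05 was reached by 5 (12% of all genes), 0 were called by edgeR or limma-voom, and 3 by DESeq2 (3.43% of its genes). Cd3d, a chain of the T cell receptor complex, had 8, 8, 2 and 13 reads in EYFP and 23, 32 and 79 in ATG7. It was under the filter level in EYFP 2 and EYFP 3, so its place in the test rested on the group where it was high. For the other markers of this list the filter's part is not given here, so nothing is read from these counts. The list's summed level, led by Il7r and Cd4, was 42.1 to 51.2 CPM in EYFP and 44.2 to 56.4 CPM in ATG7 (exact permutation p = 0.257). Their part in the Pdyn difference was not tested.

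The genes whose pattern over the 7 libraries was most like that of Pdyn were Gbp2, Cst7, Il12b, Trim21 and Iigp1. Of 15050 genes with a mean of at least 1 CPM, these had the highest Pearson r in log2 CPM, at 0.988, 0.987, 0.983, 0.981 and 0.981, with Spearman rho of 0.964, 0.893, 0.821, 0.857 and 0.929. These are descriptions over 7 libraries that share the group difference. Gbp2, an interferon-induced GTPase, averaged 18.4 ± 3.61 CPM in the 4 EYFP libraries (SD, n = 4) and 40.6 ± 3.12 CPM in the 3 ATG7 libraries (SD, n = 3), a log2 fold change of 1.14 (edgeR adjusted p = 0.00705). Cst7, a cystatin raised in reactive microglia, had a log2 fold change of 1.84 (edgeR adjusted p = 0.0105), Il12b, a subunit of interleukin heterodimers, 1.70 (adjusted p = 0.0293), and Iigp1, an immunity-related GTPase, 1.41 (adjusted p = 0.0272). Trim21, an intracellular antibody receptor, had a log2 fold change of 0.21 and did not pass (adjusted p = 0.257). The log2 fold change of Pdyn was above that of each of these 5.

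**Figure D5:**
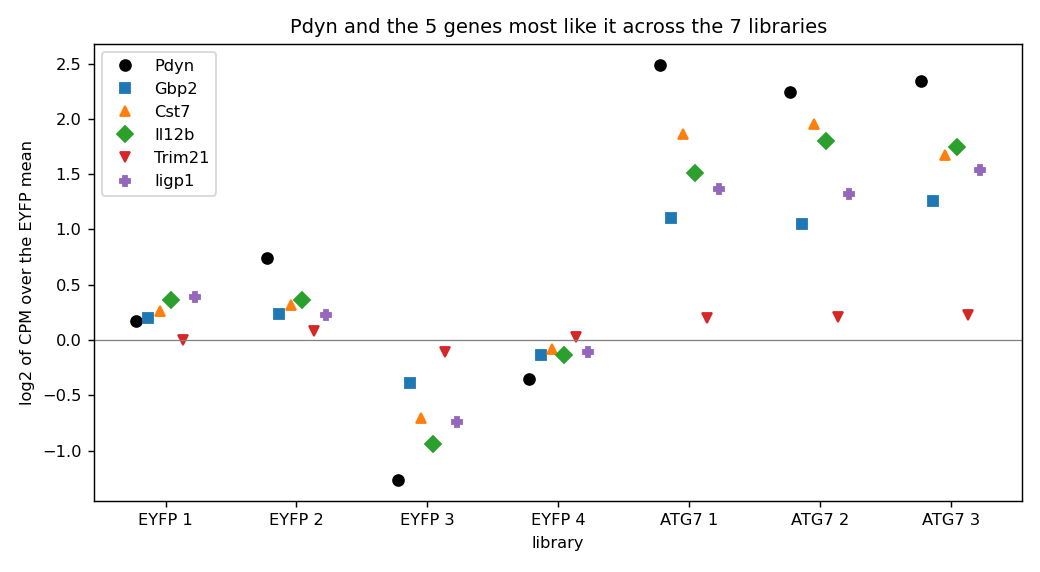
Log2 of CPM over the EYFP mean for Pdyn and the 5 genes with the highest Pearson r to it, in each of the 7 libraries, 1 symbol per gene. The 3 ATG7 libraries lie above the 4 EYFP libraries for Pdyn and for all 5 genes.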

How the data were processed

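RNA sequencing libraries of CD11b-enriched microglia (4 EYFP, 3 ATG7) were grouped by sample title. The authors deposited raw counts per gene as whole numbers. Per the submitters' processing notes, fastp 0.20.1, HISAT2 2.0.5 and featureCounts were used with builds mm10 and GRCm38; how strand and shared reads were handled and the annotation release are not given in the sources used here. The 37 mitochondrial genes were listed at 0 in every library. All columns matched a library by name (0 unmatched), and 55141 of 55401 identifiers matched a GENCODE M21 symbol.

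In R 4.3.3, edgeR 4.0.16 was fitted to all 7 libraries with TMM factors, a filter on low counts (0.222 CPM in at least 3 libraries, from a minimum count of 10), a robust quasi-likelihood test and Benjamini-Hochberg adjustment over 19199 genes. Fold changes are log2, ATG7 minus EYFP, and the SE is the absolute log2 fold change over the square root of F. Fitted values for most-like genes used a prior count of 2. limma 3.58.1 (voom) and DESeq2 1.42.0 were alternatives, with other scalings, filters and covariates and leaving out each library. Marker sums were compared with a two-sided exact permutation test over the 35 splits, whose smallest possible p is 0.0286. The scripts were tested on simulated data.

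With totals of 35934210 to 55217119 counts, the floor of 3 counts was 0.0543 to 0.0835 CPM. Upstream windows came from RefSeq (GRCm38.p6), leaving out bases past the start site, and 9 of 10 members matched. Named genes were all members; in each pathway list the genes called or, with none, the smallest p, and up to 3 of the highest mean CPM; in marker lists, up to 3 of the highest mean CPM, given for the neuronal lists (1 is not reported here); the 5 genes most like Pdyn; and its neighbours. Granule, convertase, lymphocyte, pituitary and neuronal genes singled out beyond that rule (Chga, Chgb, Scg2, Pcsk1, Pcsk2, Cd3d, Cga, Pnoc, Oprk1, Prox1 and C1ql2) were chosen after their values were seen. The members and lists were chosen with earlier results of these data known.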

Additional observations from a re-analysis of the deposited data

Results flagged for a closer look

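In the EYFP group of 4 libraries, 60 values were compared for a library standing apart from the other 3, and 5 were picked out, where chance gives about 1 in 20, or 3. For 3 members the value apart was a single read: Vip at 0.0222 CPM in EYFP 3, Tac1 at 0.0245 CPM in EYFP 4 and Tac2 at 0.0273 CPM in EYFP 1, each with 0 in the other EYFP libraries. A single read against 0 elsewhere always stands apart, so these 3 were fixed in advance. The rate of 1 in 20 does not hold for them, and nothing is read from 5 beside 3. The other 2 were low values in EYFP 3, the library with Xist: Mme, the enkephalin-degrading neprilysin, at 10.6 CPM and Dpp4, dipeptidyl peptidase 4, at 2.17 CPM.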

How the results depend on the processing

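The number of genes called, 145 in the reported setting, was 582 with DESeq2 (406 higher, 176 lower), 297 with no filter on low counts (234 higher, 63 lower), 265 with the pan-neuronal covariate and 6 with the choroid plexus covariate. It ranged from 28 to 277 on leaving out 1 library. The number of members called was 1 in the reported setting, 0 with the choroid plexus covariate, 0 with EYFP 2 and EYFP 3 as the only controls, and 0 to 1 on leaving out 1 library. Both of these settings were chosen after seeing the data. Pdyn lost the call with the choroid plexus covariate (2.84) and with EYFP 2 and EYFP 3 as the only controls (2.28), and its log2 fold change was 2.09 to 2.74 on leaving out 1 library; the cause was not tested. With a replicate block, 0 genes and 0 members were called and Pdyn was at 2.37 (adjusted p = 0.224). Same-numbered libraries had correlations of -0.0609, -0.182 and 0.0664 in their deviations from the group mean, and differently numbered pairs had -0.145 to 0.215. So few pairs cannot exclude a shared batch, and the labels do not say whether a shared number marks one.

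Penk, at 0.0034 in the reported setting, turned below 0 with DESeq2 size factors (-0.000799), library size alone (-0.0132), EYFP 2 and EYFP 3 as controls (-0.0154), limma-voom (-0.0217) and the replicate block (-0.26), and ranged from -0.51 to 0.24 on leaving out 1 library. Npy turned above 0 with limma-voom (0.0594), the replicate block (0.0379), without EYFP 3 (0.30) and without ATG7 2 (0.0865). It ranged from -0.37 to 0.30 on leaving out 1 library. The log2 ratio of the microglial marker sum ranged from -0.0170 to 0.12 and that of the astrocyte sum from -0.24 to 0.15. Cck and Pomc stayed below 0 in all 16 alternatives of each, and the calls of the 4 pathway lists stayed at 0. Depth limits the 5 members under the filter, where 1 or a few reads set each value.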

Other observations

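Outside the comparisons, Resp18, an endocrine secretory protein gene, had 57, 4, 0 and 44 reads in EYFP and 1, 0 and 1 in ATG7, and the pituitary transcription factor Lhx3 had 22, 0, 2 and 38 and 2, 1 and 1. Both were therefore highest in EYFP 1 and EYFP 4, as Cck was. Fam163b, a granule cell marker, had 42, 21, 8 and 10 reads in EYFP and 7, 6 and 6 in ATG7. Cort, which encodes cortistatin, had 0 to 2 reads in each library.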
